A study of Bos taurus with 16 samples.

Results

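A run of 5 neighbouring entries of the assembled bovine gene set, numbered XLOC_017323 to XLOC_017327, and the gene IGFN1 (ENSBTAG00000046177) were followed through muscle and adipose libraries of calves. These 6 members were picked by name from the 44265 features counted in every library. They were picked because their muscle counts differed between the treatments, with high counts in muscle and almost none in adipose tissue, so the muscle treatment difference and the tissue difference are given below as descriptions, and nothing is read from any test that uses them. The calves were Holstein bull calves, 21 d old at the start, fed milk replacer at 8 L/d and supplemented for 10 d with either saline (CON, n = 4, calves 1 to 4) or 5-hydroxytryptophan (5-HTP, n = 4, calves 5 to 8). 5-HTP is the immediate precursor of serotonin. Subcutaneous adipose tissue and gluteus medius muscle, a muscle of the rump, were sampled from the same 8 calves, which gave 16 RNA-Seq libraries with 1 library per calf and tissue. Each tissue piece holds several cell types, so fewer cells of a type and less RNA per cell cannot be told apart in these values.

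Titin is a giant filament protein of striated muscle that runs within the sarcomere from the Z-disc to the M-band. It acts as a molecular spring, gives the relaxed muscle its passive stiffness and serves as a scaffold on which other sarcomere proteins are placed, and its transcript is very long and extensively spliced. IGFN1 encodes a protein of immunoglobulin-like and fibronectin type III domains, domain types that also build titin, and it is found at the Z-disc of skeletal muscle, where it binds the protein KY.

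Only XLOC_017327 is named as titin (TTN) in the sources used here. The other 4 titin-region loci carry Ensembl gene identifiers without a symbol: ENSBTAG00000054051 for XLOC_017323, ENSBTAG00000052033 for XLOC_017324, ENSBTAG00000053974 for XLOC_017325 and ENSBTAG00000052348 for XLOC_017326. Their place in the titin region rests on the run of locus numbers alone, because the count files hold no coordinates. In a RefSeq gene table of a different assembly, ARS-UCD2.0, TTN lies between CCDC141 and PLEKHA3 and overlaps the uncharacterised genes LOC112442545 and LOC112442546. That table pairs 0 of its entries with Ensembl identifiers, and the study's supplementary lists name only genes that differed between the treatments. Of the planned lists of sarcomere genes and cell type markers, C1QB was therefore the only gene that could be looked up, and neither tissue was checked against its defining markers.

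Levels are given as CPM, the counts of a locus relative to the library total, scaled between libraries by TMM, a factor that makes the bulk of genes comparable. CPM is not divided by transcript length, so levels are compared between calves and not between loci. Total counts ranged from 17289845 to 25221353 in the adipose libraries and from 20655954 to 28649548 in the muscle libraries. The lowest muscle count of any member was 285, for XLOC_017327 in calf 7, and its 95% Poisson interval of 253 to 320, which covers counting error only, is narrow beside the spread between calves. Among the muscle libraries, that of calf 1 (CON) stood apart. Its correlation across genes with the median of the other libraries was 0.966, against 0.986 to 0.991 for the other 7, and its TMM factor was 0.838, against 0.966 to 1.08. Values without this calf are therefore given below.

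In muscle, all 5 titin-region loci and IGFN1 had a lower mean in the 5-HTP calves than in the CON calves. The group means of the members in 5-HTP were between 41.0% (XLOC_017327) and 77.0% (XLOC_017326) of their CON means. For 5 of the 6 members every 5-HTP calf was below every CON calf, and XLOC_017326 was the member whose groups overlapped. Over all genes tested in muscle, 1.37% were lower in 5-HTP without overlap of the groups. Nothing is read from this contrast of shares, because this difference chose the members.

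**Figure D1:**
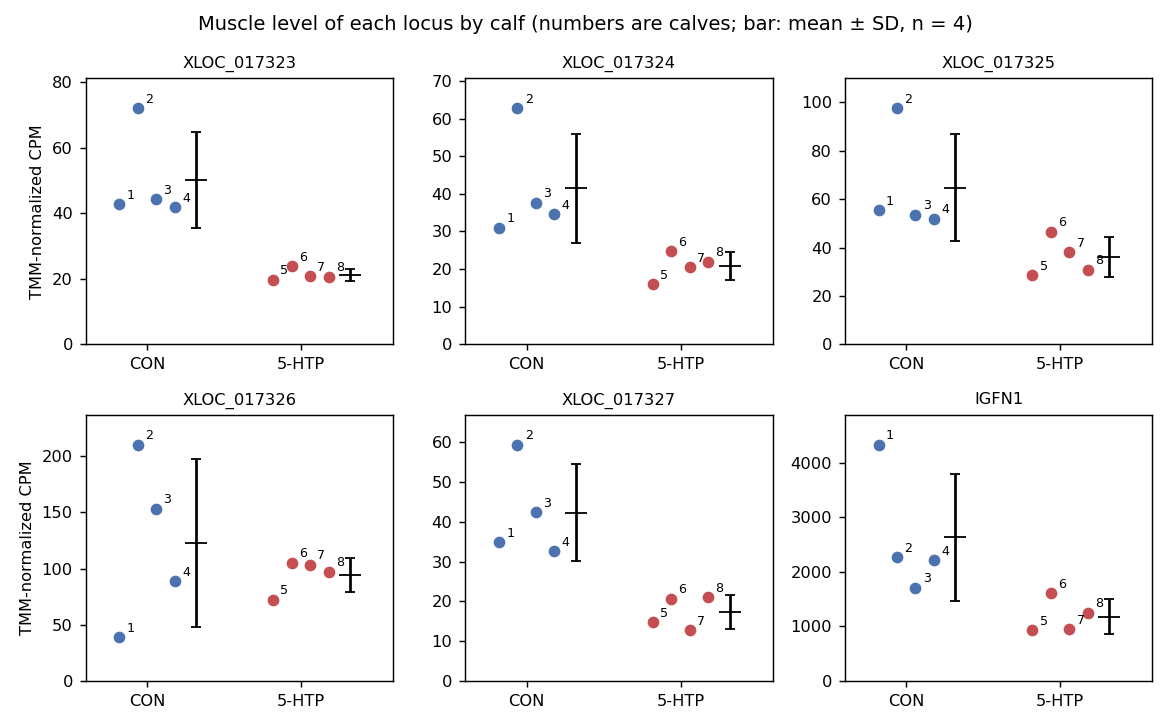
Muscle level (TMM-normalized CPM, linear axis from 0) of the 5 titin-region loci and IGFN1, with 1 point per calf, the calf number beside it, and the group mean ± SD for CON and 5-HTP (n = 4 each). Every locus but XLOC_017326 has all 5-HTP calves below all CON calves, and calf 2 is the highest CON calf for the 5 titin-region loci while calf 1 is the highest for IGFN1.

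XLOC_017327, the locus named as TTN, had 34.9, 59.4, 42.3 and 32.6 CPM in CON calves 1 to 4 and 14.8, 20.7, 12.8 and 21.1 CPM in 5-HTP calves 5 to 8. The lowest CON calf was thus above the highest 5-HTP calf, and calf 2 was the highest of all. The means were 42.3 ± 12.1 and 17.3 ± 4.19 CPM (SD, n = 4 each), a log2 fold change (logFC, 5-HTP over CON) of -1.29 with a standard error of 0.25.

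XLOC_017323 showed the narrowest 5-HTP group. Its levels were 42.8, 72.1, 44.3 and 41.8 CPM in CON calves 1 to 4 and 19.6, 23.8, 20.8 and 20.6 CPM in 5-HTP calves 5 to 8. Calf 2 was far above the other CON calves, which lay within a few CPM of each other, and the groups did not overlap. The means were 50.3 ± 14.6 and 21.2 ± 1.82 CPM (SD, n = 4 each; logFC -1.24, standard error 0.21).

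For XLOC_017324 the CON calves 1 to 4 had 31.0, 62.9, 37.6 and 34.5 CPM and the 5-HTP calves 5 to 8 had 16.02, 24.8, 20.5 and 22.0 CPM. Calf 2 was again the highest and the groups did not overlap, but the gap between the lowest CON calf and the highest 5-HTP calf was small beside the CON spread. The mean went from 41.5 ± 14.5 CPM in CON to 20.8 ± 3.65 CPM in 5-HTP (SD, n = 4 each; logFC -0.997, standard error 0.25).

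XLOC_017325 had 55.5, 97.7, 53.6 and 52.0 CPM in CON calves 1 to 4 and 28.4, 46.6, 38.0 and 30.8 CPM in 5-HTP calves 5 to 8. Calf 2 set the CON spread once more, and calf 6, the highest 5-HTP calf, came near the lowest CON calf without reaching it. The means were 64.7 ± 22.1 and 36.0 ± 8.19 CPM (SD, n = 4 each; logFC -0.85, standard error 0.25).

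The locus between these and the named TTN locus, XLOC_017326, behaved differently. It had 38.9, 210.2, 153 and 88.8 CPM in CON calves 1 to 4 and 72.4, 105, 103 and 97.1 CPM in 5-HTP calves 5 to 8. Calf 1 was the lowest of all 8 calves and calf 2 the highest, so the 5-HTP group lay inside the CON range. The means were 123 ± 74.8 and 94.5 ± 15.2 CPM (SD, n = 4 each), and the logFC of -0.38 was smaller than its standard error of 0.39.

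IGFN1 was an abundant muscle transcript. It had 4333, 2272, 1709 and 2210 CPM in CON calves 1 to 4, where calf 1 was the highest, and 928, 1604, 944 and 1249 CPM in 5-HTP calves 5 to 8. The highest 5-HTP calf, calf 6, was just under the lowest CON calf, calf 3. The means were 2631 ± 1162 and 1181 ± 318 CPM (SD, n = 4 each; logFC -1.16, standard error 0.29). IGFN1 alone took 0.175% to 0.363% of all counts in the CON muscle libraries and 0.0911% to 0.161% in the 5-HTP libraries.

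**Figure D2:**
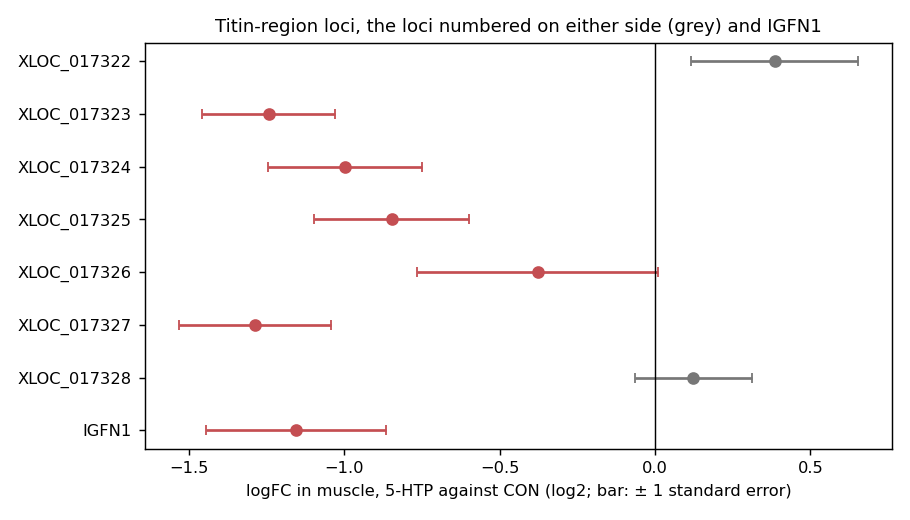
Log2 fold change in muscle (5-HTP over CON, n = 4 each, horizontal axis) for the 6 members (red) and for the loci on either side by number, XLOC_017322 and XLOC_017328 (grey), where bars are ± 1 standard error. The members lie left of 0, from -1.29 for XLOC_017327 to -0.38 for XLOC_017326, whose bar reaches 0, and both flanking loci lie right of 0 (0.39 and 0.12).

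The study's own threshold was a false discovery rate (FDR) of 0.20, from edgeR's likelihood ratio test. By it, 0.201% of the 16878 genes tested in muscle were called, 0.13% as lower in 5-HTP. Of the members, XLOC_017323, XLOC_017324, XLOC_017327 and IGFN1 were among those called (4 of 6), and XLOC_017325 and XLOC_017326 were not. Nothing is read from these counts beside the shares of all genes, because the members were chosen for this difference. By the quasi-likelihood test of edgeR, in which the uncertain spread of a gene counts too, the calls were fewer: it called 0 of 6 members and 0.00592% of all genes. In it 5 of 6 members had an unadjusted p of 0.05 or less. The share of all genes at that p was not worked out, so nothing is read from this count. DESeq2 called 4 of 6 members and 0.195% of the 14903 genes to which it gave an adjusted p. XLOC_017324 and IGFN1 were no longer called without calf 5, 7 or 8, nor XLOC_017324 without calf 2. XLOC_017325 was called without calf 3, 4 or 6. This gave between 2 and 5 members called when single calves were left out. The number of all genes called moved the same way. It was 34 with all calves, 13, 15 and 13 without calves 5, 7 and 8, and 62, 188 and 140 without calves 3, 4 and 6. Without calf 5, 7 or 8 the logFC of XLOC_017324 was -0.89, -0.99 and -1.02, and that of IGFN1 was -1.06, -1.06 and -1.18.

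Both unusual CON calves moved the size of these differences. Without calf 1 the logFC of IGFN1 was -0.81, and those of XLOC_017323 to XLOC_017327, in order, were -1.32, -1.12, -0.92, -0.68 and -1.37. Without calf 2 the logFC of IGFN1 was -1.22, and the titin-region loci, in the same order, had -1.02, -0.73, -0.58, 0.01 and -1.08. XLOC_017326 thus showed no lower level without calf 2, whereas the other 5 members stayed lower in 5-HTP in either case.

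Transcripts of other kinds also moved with the treatment groups in muscle. EGR1, an immediate early transcription factor, had 144, 687, 81.8 and 37.8 CPM in CON calves 1 to 4 and 26.8, 19.5, 18.6 and 11.4 CPM in 5-HTP calves 5 to 8, so calf 2 was the highest for EGR1 as for the titin-region loci. C1QB, a complement component made by macrophages, was at 9.01 ± 5.72 CPM in CON and 3.03 ± 1.25 CPM in 5-HTP (SD, n = 4 each). SIGLEC1, a macrophage receptor, was at 1.61 ± 0.549 and 0.568 ± 0.159 CPM, and CFD, the fat cell product adipsin, at 4.68 ± 1.30 and 1.80 ± 0.622 CPM. For each of these 4 genes every 5-HTP calf was below every CON calf. They come from the study's list of genes that differed between the treatments in muscle, so this separation is a result of how they were chosen. That list also holds genes that were higher in 5-HTP, among them IFI47, and only lower genes are shown here. The part of these 4 genes in the difference at the titin-region loci and IGFN1 was not tested.

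The 5-HTP calves were more alike than the CON calves for every member. The coefficient of variation, the SD as a percentage of the mean, was 28.6% to 60.9% over the CON calves and 8.55% to 26.9% over the 5-HTP calves, and it was lower in 5-HTP for 6 of 6 members. Most muscle genes did the same, with a lower coefficient of variation in 5-HTP for 72.8% of those tested.

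The loci on either side by number were compared in the same way. Of the 20 loci that lie 10 on either side by number, 11 were abundant enough to test in muscle, and the likelihood ratio test and the quasi-likelihood test of edgeR and DESeq2 each called 0 of them, with 0 at an unadjusted p of 0.05 or less in each. Their median logFC was 0.12 (range -0.56 to 0.43), beside a median of -0.0057 over all genes tested. The median over the 6 members was -1.08, which their choice from this contrast fixed in direction. Among the neighbours too low to test, XLOC_017314 had 11 counts over the CON and 141 over the 5-HTP muscle libraries. This locus ranged widely over the 5-HTP calves, from 0.294 to 3.81 CPM (mean 1.47 ± 1.59, SD, n = 4). It was singled out after its values were seen. Both loci that directly flank the run, singled out after their values were seen, were muscle transcripts as well. By number they adjoin the run just as its loci adjoin each other. Whether they too belong to titin cannot be told from the sources used here, so the run may be only a part of it. XLOC_017322 had 70303 counts over the muscle libraries and 2 over the adipose libraries, and XLOC_017328 had 473894 and 80.

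XLOC_017322 had 199, 250, 274 and 443 CPM in CON calves 1 to 4 and 535, 372, 285 and 331 CPM in 5-HTP calves 5 to 8. The groups overlapped, with the highest calf in the 5-HTP group (means 291 ± 106 and 381 ± 109 CPM, SD, n = 4 each). Its logFC was 0.39 (95% interval -0.14 to 0.91), with an adjusted p of 0.997 in the likelihood ratio test of edgeR and an exact two-sided permutation p of 0.229.

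XLOC_017328 had 1713, 2465, 2544 and 2176 CPM in CON calves 1 to 4 and 2193, 2847, 2421 and 2234 CPM in 5-HTP calves 5 to 8. These groups overlapped over most of their range (means 2224 ± 376 and 2424 ± 299 CPM, SD, n = 4 each). The logFC was 0.12 (95% interval -0.24 to 0.49), with an adjusted p of 0.997 in edgeR and an exact two-sided permutation p of 0.486.

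Because neighbouring loci are counted in the same library, their ratio does not depend on the scaling between libraries. Of the counts of the 7 loci XLOC_017322 to XLOC_017328, the 5 titin-region loci made up 9.60%, 15.6%, 10.5% and 8.71% in CON calves 1 to 4 and 5.25%, 6.43%, 6.74% and 6.95% in 5-HTP calves 5 to 8. All 4 CON calves were above all 5-HTP calves, including calf 1 (means 11.1% ± 3.09 and 6.34% ± 0.757, SD, n = 4 each). This share rests on the same contrast that chose the members and is a description.

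The ratio of XLOC_017326 to its neighbours was set out in the same way. For each count of the other 4 loci together, the CON calves 1 to 4 had 0.237, 0.720, 0.862 and 0.552 counts of it, and the 5-HTP calves 5 to 8 had 0.917, 0.908, 1.12 and 1.03. Every 5-HTP calf had a higher ratio than every CON calf (means 0.593 ± 0.269 and 0.994 ± 0.102, SD, n = 4 each). The other 4 loci were chosen with their lower counts in 5-HTP known, which raises this ratio in 5-HTP by itself, so it too is a description. Among the other 4 loci the make-up varied less. XLOC_017323 held 20.6% to 26.1% of their counts over the 8 calves, XLOC_017324 18.9% to 23.3%, XLOC_017325 30.1% to 41.3% and XLOC_017327 13.9% to 23.8%.

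**Figure D3:**
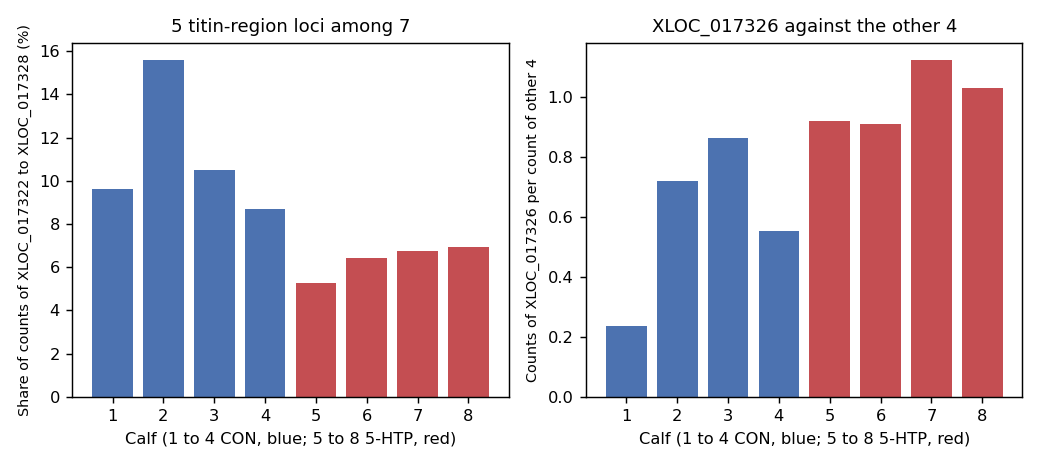
Left, the 5 titin-region loci as a percentage of the counts of XLOC_017322 to XLOC_017328 in each muscle library; right, counts of XLOC_017326 per count of the other 4 titin-region loci (both axes from 0, 1 bar per calf, CON blue and 5-HTP red, n = 4 each). The share of the 5 loci is lower in every 5-HTP calf than in every CON calf, and the ratio of XLOC_017326 to the other 4 is higher.

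Whether the loci also moved together from calf to calf was asked of the deviations of each calf from its own group mean on the log2 CPM scale. The muscle test behind the choice of members weighs the spread of these deviations, so the choice was not free of them. Whether overlap between the loci in the assembled gene set affects the correlations was not tested. All 10 pairs of titin-region loci had a positive correlation over the 8 muscle libraries (Pearson's r 0.58 to 0.93, median 0.78). Calf 2 was above the CON mean for each of the 5 loci, by 0.53 to 1.03 on the log2 scale, and calf 6 was above the 5-HTP mean for each.

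The closest pairs were XLOC_017323 with XLOC_017324 and XLOC_017323 with XLOC_017325. For the former, r was 0.93 and Spearman's rho 0.86, with exact permutation p values of 0.00868 and 0.0208 (adjusted over 15 pairs, 0.0651 and 0.104). For the latter, r was 0.93 and rho 0.76, with exact permutation p values of 0.00521 and 0.0104 (adjusted, 0.0651 and 0.104). The exact test permuted the calves within each treatment group, and its smallest possible p was 0.00174.

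None of the 15 pairs of members passed an adjusted p of 0.05 in this exact test, and 5 had an unadjusted p of 0.05 or less (0 and 3 for Spearman's rho). The correlations rested in part on calves 2 and 6. Without these 2, which lay farthest from the median of XLOC_017323, r was 0.67 and 0.57 for the closest pairs. The r of XLOC_017325 with XLOC_017327 was 0.62 with all calves and -0.35 without the same 2 calves. Without calf 2 alone, all 10 pairs remained positive, with a median r of 0.60 (range 0.16 to 0.90).

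The r of IGFN1 with the 5 titin-region loci ranged from -0.61 to 0.16, with a median of 0.01, and it was negative with XLOC_017326 and XLOC_017324. The sign of these correlations depended on single calves. In calf 1, IGFN1 was 0.81 above the CON mean on the log2 scale while XLOC_017326 deviated by -1.40. Without calf 1, the r of IGFN1 was positive with all 5 loci (0.20 to 0.61, median 0.54). Without calf 6 it was negative with all 5 (-0.75 to -0.06, median -0.15), and without calf 2 it ranged from -0.70 to 0.43 (median 0.27). The titin-region pairs had a median r of 0.81 without calf 1.

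**Figure D4:**
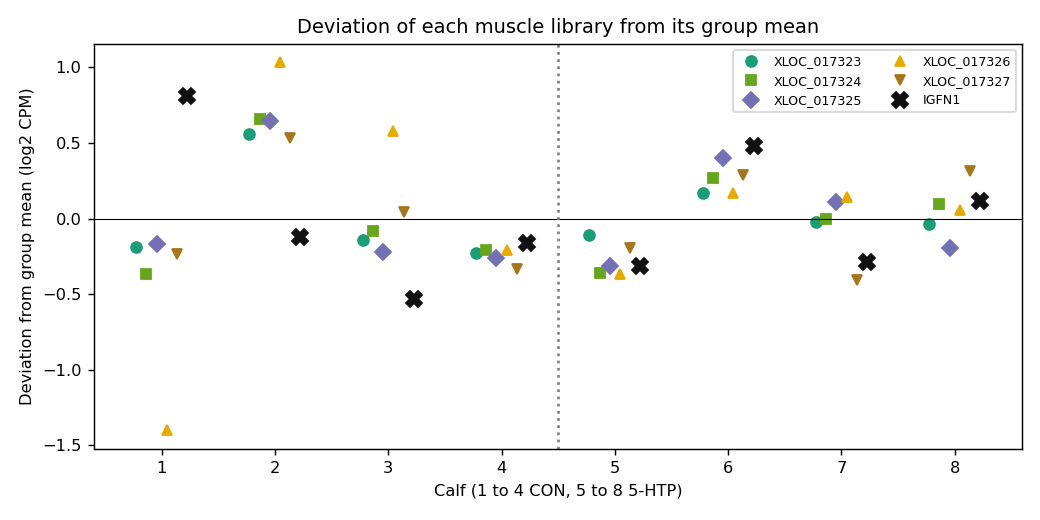
Deviation of each member from its treatment group mean (log2 CPM, vertical axis) in each muscle library (calves 1 to 4 CON, 5 to 8 5-HTP, 1 symbol per member). The 5 titin-region loci lie above 0 together in calves 2 and 6, while IGFN1 (crosses) stands far above and XLOC_017326 far below the others in calf 1.

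Similar deviations were not particular to the members. Among 7019 loci with a mean muscle level of at least 10 CPM, the pair most like XLOC_017327 in their deviations over the 8 muscle libraries were ENSBTAG00000013011 (r 0.97) and ENSBTAG00000003439 (r 0.96), whose logFC in muscle was 0.20 and -0.08. In the same order of likeness to XLOC_017327, XLOC_017324 stood at place 75, XLOC_017323 at 129, XLOC_017325 at 373, XLOC_017326 at 419 and IGFN1 at 2891. For IGFN1 the most similar were ENSBTAG00000003687 (r 0.99, logFC 0.03) and ENSBTAG00000051211 (r 0.99, logFC -0.62), and the titin-region loci stood at places 3540 to 5477. The files give no symbols for these 4 loci.

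In adipose tissue the 6 members were at or near the detection limit, and 0 of 6 had enough counts to enter the treatment test. Of the 48 values, 6 members in 8 adipose libraries, 34 were 0, and 5 exceeded 3 counts, the limit used here for a detectable level (0.119 to 0.174 CPM). The highest count was 11. In the pooled libraries, XLOC_017323 had 7443 counts in muscle and 3 in adipose tissue, XLOC_017324 had 6466 and 4, XLOC_017325 had 10406 and 2, and XLOC_017326 had 22539 and 3.

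XLOC_017327 had 6187 counts over the muscle libraries and 17 over the adipose libraries. Its CPM in muscle was 298 times that in adipose tissue (exact 95% interval 186 to 512, counting error only), the smallest ratio of the 6 members. IGFN1 had 381688 and 22 counts, a ratio of 14208 (9384 to 22671). For the other 4 loci the adipose counts were so few that the intervals were wide, from 517 to 4860 for XLOC_017324 (ratio 1324) up to 1179 to 35187 for XLOC_017325 (ratio 4261). Of all genes tested over both tissues, 35.3% were called higher in muscle.

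The few adipose counts lay mostly in 5-HTP calves. XLOC_017327 was at 0 in every CON calf and had 11, 1, 5 and 0 counts in calves 5 to 8. IGFN1 was likewise at 0 in every CON calf, with 8, 6, 0 and 8 in calves 5 to 8. Each had a 5-HTP calf at 0, so the groups overlapped, and the exact two-sided permutation p was 0.143 for both. With only 3 libraries above 0, this was the lowest p the test could give, so nothing is read from it.

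The remaining loci had between 0 and 3 counts per adipose library. XLOC_017323 had 3 counts in calf 6 and 0 elsewhere, and XLOC_017324 had 1 in calf 3, 2 in calf 5 and 1 in calf 6. XLOC_017325 had 1 in each of calves 6 and 7, and XLOC_017326 had 1 in calf 1 and 2 in calf 6. In each of these 4 the exact permutation p was between 0.429 and 1, and no direction was detectable at this depth.

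With the filter on low counts removed, 0 of 6 members were called in adipose tissue by either the likelihood ratio test (0.0803% of all genes called) or the quasi-likelihood test of edgeR (0.00268%), and XLOC_017327 and IGFN1 had an unadjusted p of 0.05 or less in both. The share of all genes at that unadjusted p was not worked out. For XLOC_017327 and IGFN1 the adjusted p was 0.739 and 0.581 in the likelihood ratio test and 0.862 for both in the quasi-likelihood test. Groups without overlap, higher in 5-HTP, were found for 0 of 6 members and for 1.38% of all genes with a count.

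For comparison, 116 other loci abundant in muscle were summed in the adipose libraries, a list set after the data were seen. Each had at least 100 CPM in muscle on average and less in adipose tissue by a factor of over 100. Their sum in adipose tissue was 296, 411, 332 and 329 CPM in CON calves 1 to 4 and 355, 360, 270 and 334 CPM in 5-HTP calves 5 to 8, and the groups overlapped.

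**Figure D5:**
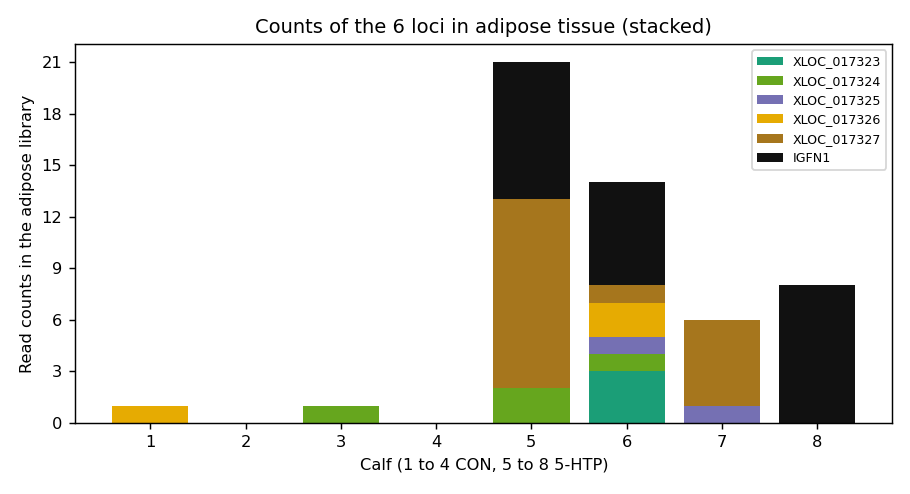
Read counts of the 6 members in each adipose library, stacked by locus (linear axis from 0; calves 1 to 4 CON, calves 5 to 8 5-HTP). The tallest segments are XLOC_017327 in calves 5 and 7 (11 and 5 counts) and IGFN1 in calves 5, 6 and 8 (8, 6 and 8 counts), and the CON calves hold single counts in calves 1 and 3.

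Whether 5-HTP had a different effect in muscle and in adipose tissue was tested over all 16 libraries with a tissue by treatment term, which was called for 0.087% of 21849 genes. For the members this is a description, since the muscle arm of the term is the contrast that chose them. They also entered this test only through their muscle counts, as 0 of 6 had enough counts in adipose tissue. Nothing is therefore read from their calls. XLOC_017327 and IGFN1 were called (2 of 6 members), with an adjusted p of 0.000373 and 0.000159 by the edgeR likelihood ratio test. The other 4 had adjusted p values of 0.791 to 1. The adipose arm set 17 and 22 counts in 5-HTP calves against 0 in CON calves, so the fitted size (-5.94 and -6.22 on the log2 scale) depends on how 0 counts are handled. The quasi-likelihood test called 0 of 6 members, with an adjusted p of 1 after rounding for both XLOC_017327 and IGFN1. In it 3 of 6 members had an unadjusted p of 0.05 or less. The shares of all genes for these counts were not worked out, so nothing is read from them.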

How the data were processed

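RNA-Seq counts of gluteus medius muscle and subcutaneous fat came from 8 calves (16 libraries). The authors trimmed the reads (the labels name FastQC 0.11.7 and Trim Galore 0.4.4), aligned them with HISAT2 to the ARS-UCD1.2 assembly, merged assembled transcripts with Cufflinks 2.2.1 and counted reads per gene with the intersection-nonempty mode of HTSeq. The deposited values are raw whole-number counts per feature, with no normalization and no pooling. In this mode no read is counted for more than a single feature, so the titin loci share no counted reads. Whether strand was used in counting is not given in the sources used here. Where these loci overlap each other or other assembled transcripts, the split of reads is uncertain to that extent.

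Groups were taken from the tissue and treatment labels. Each tissue was fitted by itself with edgeR 4.0.16 in R 4.3.3 (TMM, default dispersions, likelihood ratio test, Benjamini-Hochberg adjustment, FDR of 0.20), the test of the study's methods, over features that reached 10 counts in 4 or more libraries (16878 in muscle). The quasi-likelihood test of edgeR and DESeq2 1.42.0 were alternatives. Standard errors come from the fitted negative binomial model. Within-group deviations used log2(CPM + 0.001) with exact permutation within groups, 576 pairings. The tissue by treatment term was fitted over 16 libraries, and again with the calf as a block. Calf numbers in the titles are the same in both tissues, and were taken as the calf. The deviations of same-numbered libraries correlated at -0.08 to 0.27 (over 0.1 in 6 of 8). Treatment groups share no calf, so no pairing exists within a tissue. No replicates were near-identical (chi-square per degree of freedom at least 20.5 within groups). Of these steps, only the likelihood ratio fit in muscle was tested on simulated data. Figures used Python 3.11.15 and matplotlib 3.10.9.

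The members, lists and named loci were chosen with earlier results of these data known. Named were the 6 members, the 10 loci on either side by number where called, and the 2 loci with deviations most like XLOC_017327 and like IGFN1 among those with at least 10 CPM. The symbol TTN for XLOC_017327 and the identifiers of EGR1, C1QB, SIGLEC1 and CFD come from the study's supplementary lists. SIGLEC1, CFD and the neighbouring loci XLOC_017314, XLOC_017322 and XLOC_017328, none of these 3 called, were added after the data were seen. Of the planned lists of sarcomere and cell type genes, only C1QB could be matched to an identifier. Sequences were not used here.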

Additional observations from a re-analysis of the deposited data

Results flagged for a closer look

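In a group of 4, a value was set aside for a closer look where its gap to the nearest calf was unusually large for the group's range. Of 14 groups of 4 checked, 2 met this, and chance gives about 1 in 20. Both were CON calf 2 in muscle, at 72.1 CPM for XLOC_017323 and at 97.7 CPM for XLOC_017325. Calf 2 was also the highest CON calf for EGR1 (687 CPM). Without it the logFC was -1.02 for XLOC_017323 and -0.58 for XLOC_017325.

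The tissue by treatment term, which compares the effect of 5-HTP in muscle and in adipose tissue, had an adjusted p of 0.000373 for XLOC_017327 and of 0.000159 for IGFN1 in the likelihood ratio test of edgeR. Its muscle arm is the contrast that chose the members, and they entered the test only through their muscle counts. This is therefore no independent evidence of a difference between the tissues. Both were lower in 5-HTP muscle, while the adipose counts were 0 in all CON calves and 17 and 22 in all over the 5-HTP calves. The adjusted p of both was 1 after rounding in the quasi-likelihood test.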

How the results depend on the processing

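With the main settings, 34 genes were called in muscle and 22 in adipose tissue. Under other settings the numbers called were 1 each by the quasi-likelihood test, 8 and 7 at an FDR of 0.05, and 13 to 188 and 4 to 56 when single calves were left out. Fewest were called in muscle without calf 5 or 8 and in adipose tissue without calf 4. Among the members, 4 were called in muscle with the main settings, 0 by the quasi-likelihood test, 2 at an FDR of 0.05, and 2 to 5 when single calves were left out. DESeq2, another scaling, no filter, the other reading of the filter and 1 entry per locus gave counts within 1.5 times of those with the main settings. The logFC of XLOC_017326 ranged from -0.68 to 0.012 when single calves were left out, above 0 without calf 2, and its tissue by treatment term from -2.61 to 0.96, above 0 without calf 6. The quasi-likelihood test called 0 members for that term, against 2. The cause was not tested.

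With the calf as a replicate block, the tissue by treatment term was -5.81 for XLOC_017327 (adjusted p of 0.00151, edgeR) and -6.21 for IGFN1 (adjusted p of 2.82e-05), and the block changed no call of the members. Here too the members entered only through their muscle counts, so these values are a description.

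The 6 members did not enter the adipose test, so alternatives for their adipose logFC gave values only without the filter. At 17289845 to 25221353 counts per adipose library, a level under 0.119 to 0.174 CPM cannot be told from 0. With 4 calves a group, an exact two-sided permutation test cannot go below 0.0286. Where most libraries are at 0 its lowest p is higher, and it was 0.143 for XLOC_017327 and IGFN1 in adipose tissue.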
